A study of Mus musculus with 2 samples.

Results

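The transcription factor genes Spi1, Runx1, Runx2, Runx3, Cbfb, Myb, Gfi1, Etv6, Fli1 and Erg were examined in mouse marrow progenitors that carried 1 of 2 forms of the PML/RARa fusion. They were chosen by name, with earlier results of these data known, and make up 10 of the 34745 gene models in the tables. The fusion joins the nuclear body protein PML to the retinoic acid receptor alpha and drives acute promyelocytic leukaemia. The cells came from femoral marrow of C57BL/6 mice given 5-fluorouracil, were enriched with a progenitor isolation kit, were transduced with a pMSCV vector and were sorted. They were grown with SCF, IL-3 and IL-6. The library called WT here carried PML/RARa (WT) and the library called 2KR carried PML/RARa (2KR). The series title refers to 2 lysines of the fusion. Both libraries therefore carry a fusion, and cells with the empty vector were not analysed here. The age of the mice, and whether marrow of several animals was pooled, are not stated in the sources used here.

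PU.1, the product of Spi1, is an ETS factor that directs myeloid and B cell fate, and its amount helps to set which lineage a progenitor takes. The RUNX proteins bind DNA together with the non-DNA-binding partner CBFB, and RUNX1 with CBFB is needed for the emergence of blood stem cells. MYB sustains the growth of immature cells, GFI1 is a repressor that favours granulocytes over monocytes, and ETV6, FLI1 and ERG are ETS factors of stem cells and of the megakaryocyte lineage. PML/RARa is known to occupy many sites that PU.1 also binds.

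Each form had 1 library, with 17606168 counts in WT and 20462011 in 2KR. No replicate error exists, no p-value was computed, and every value describes these libraries only. Levels are given as CPM, which are counts divided by the TMM-scaled library size. Levels of different genes are set against each other only as the deposited FPKM, which are also divided by gene length. Ratios are of CPM, 2KR over WT, and carry an exact 95% interval for counting error only. A gene was called different when the log2 ratio of CPM + 1 was at least 1 in size and the mean was at least 1 CPM. By this rule 7.22% of 12466 tested models differed, 2.66% being higher in 2KR and 4.56% lower. The gene lists below were also chosen with earlier results of these data known. Counts over a list are therefore descriptions and not tests. Because RNA was taken from whole populations, fewer cells of a type and less RNA per cell cannot be told apart.

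Promoter sequences of 8 of the 10 genes were matched by symbol in RefSeq tables of build GRCm38.p6, and Spi1 and Fli1 had no entry. The 3 RUNX genes were compared first, because they are paralogs of each other. A window of each, running from 250 bases before an annotated start to 50 after it, held the same run of 18 bases. It is printed in capitals, within 30 bases of each gene's own strand, as a feature that these genes share.
Runx1 (chr16:92826025-92826054, minus strand): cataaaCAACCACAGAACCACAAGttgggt
Runx2 (chr17:44814583-44814612, minus strand): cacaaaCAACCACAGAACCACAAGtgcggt
Runx3 (chr4:135120503-135120532, plus strand): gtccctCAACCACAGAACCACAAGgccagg
The run begins 27 bases after the annotated start in Runx1, 22 after it in Runx2 and 136 before it in Runx3. It contains the RUNX motif ACCACA 2 times. In all, 3 of 32817 mouse windows of this length held the run, which are the 3 shown. The single motif, read on both strands, was in 16.8% of windows, and 1.81% held it at least 2 times.

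The sequences before a start of Myb and before the second start of Gfi1 are shown because these genes had the largest ratios of the 10. Each is 250 bases long and ends just before the start. Capitals mark the MYB motif AACNG, read on both strands.
Myb (chr10:21160985-21161234, minus strand): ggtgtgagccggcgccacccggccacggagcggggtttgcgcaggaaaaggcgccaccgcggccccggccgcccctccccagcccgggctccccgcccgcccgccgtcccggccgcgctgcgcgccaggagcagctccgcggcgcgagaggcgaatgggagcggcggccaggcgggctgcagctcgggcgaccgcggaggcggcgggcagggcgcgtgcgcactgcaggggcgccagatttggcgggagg
Gfi1 (chr5:107724344-107724593, minus strand): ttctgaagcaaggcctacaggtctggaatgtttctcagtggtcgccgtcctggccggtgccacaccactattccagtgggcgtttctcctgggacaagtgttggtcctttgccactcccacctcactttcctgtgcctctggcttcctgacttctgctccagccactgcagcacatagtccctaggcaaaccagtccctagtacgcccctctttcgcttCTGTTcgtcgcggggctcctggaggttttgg
The Gfi1 sequence held 1 match and the Myb sequence 0. Neither held ACCACA or GAGGAA, a core of PU.1 sites, on either strand. AACNG was in 80.3% and GAGGAA in 28.3% of all windows. Over the 13 full windows of the 8 genes, AACNG was in 8, GAGGAA in 2 and ACCACA in 3, which are those of the RUNX genes above. A match is a description of letters and not a binding site.

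None of the 10 genes differed 2-fold between the forms. All 10 passed the filter on low values, and 0 of 10 were called against the 7.22% of all tested models. The ratio was above 1 for 7 of the 10, against 52.3% of tested models. For those 7 the counting interval lay wholly above 1, which held for 31.6% of tested models. For 1 gene, Runx3, it lay wholly below 1, against 28.5%. This interval narrows with the number of counts, so abundant genes pass it at small ratios. The median log2 ratio of the 10 genes was 0.16, and that of all tested models was 0.02 with quartiles of -0.21 and 0.23.

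**Figure D1:**
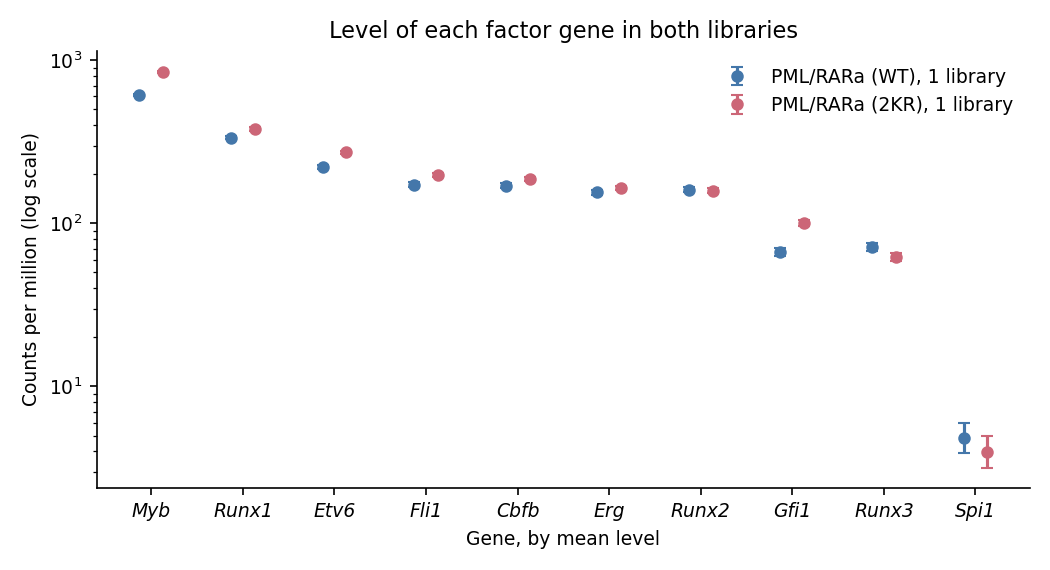
Level of each of the 10 genes in CPM (log axis) in the WT library (blue) and the 2KR library (red), ordered by mean level, with exact 95% Poisson intervals that cover counting error only. Myb is highest at 613 and 851 CPM, and Spi1, at 4.86 and 3.98 CPM, lies below all the others.

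Spi1 (ENSMUSG00000002111, chromosome 2, 91082390 to 91115756 in GRCm38) was the lowest of the 10 genes. Counts were 85 for WT and 82 for 2KR, or 4.86 and 3.98 CPM. The ratio was 0.819 (0.597 to 1.12), so a difference in either direction was not detectable at this depth. Its deposited FPKM of 1.46 in WT and 1.21 in 2KR was above that of only 17.6% and 15.6% of tested models. The flanking zinc transporter gene Slc39a13 had 22.7 and 25.2 CPM, and the kinase adaptor gene Madd on the other side had 140 and 95.3 CPM.

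Genes that act with or against PU.1 were present at very different levels. GATA2, a factor of progenitors and mast cells that opposes PU.1, had 79.7 FPKM in WT and 53.0 in 2KR. The Gata2 level per length was 54.6 times that of Spi1 in WT and 43.7 times in 2KR. Such multiples depend on the gene length used. With the longest coding transcripts Spi1 was at 0.0125 of the Gata2 level in WT and 0.0156 in 2KR, in place of 0.0183 and 0.0229. Cebpa, a granulocyte regulator that works with PU.1, was at 6.74 times the Spi1 level in WT and 13.4 times in 2KR. By transcript length Spi1 was at 0.132 and 0.0663 of the Cebpa level, in place of 0.148 and 0.0744. In counts, which need neither scaling nor length, the ratio of Spi1 to Cebpa was 1.99-fold lower in 2KR (1.46 to 2.73). Most of that shift lay on the Cebpa side, with 830 and 1596 counts and a ratio of 1.63 (1.499 to 1.78). In counts, the ratio of Spi1 to Gata2 was 1.25-fold higher in 2KR (0.921 to 1.69), an interval that holds 1.

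Of 6 tested partners and opponents of PU.1, 1 was called lower and 0 higher, against 4.56% and 2.66% of all tested models. Their median log2 ratio was -0.22. The lower gene was Cebpb, a regulator of late and inflammatory myeloid genes, at 12.8 CPM in WT and 3.25 in 2KR. Its ratio made it 3.92-fold lower (2.97 to 5.23). Jun, an AP-1 factor that binds PU.1, had 137 and 74.3 CPM and stayed under the rule. Gata1 and Irf8 were low, with 97 and 132 counts and 93 and 129 counts, and the intervals of both ratios hold 1. Irf4 had 0 counts in both libraries.

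Known PU.1 target genes were split between abundant and nearly silent members. Of 25 gene models (Itgam has 2), 16 were tested, and 12 of these had a ratio below 1, against 47.7% of all tested models. Their median log2 ratio was -0.36. The rule called 1 of them lower in 2KR and 1 higher, against 4.56% and 2.66% of all tested models. Btk, a kinase of B cell and mast cell receptors, was the lower one, with 34.9 and 9.51 CPM, 3.67-fold lower (3.12 to 4.34). Ncf4, a subunit of the phagocyte oxidase, was the higher one, with only 8 and 40 counts and a log2 ratio of 1.01, at the edge of the rule. With 0.458 CPM in WT and 1.94 in 2KR, Ncf4 passed the filter only through 2KR, where it was high. Its call therefore carries little weight. Several alternatives call 1 gene of this list in place of 2. The abundant members differed less: the cytokine receptor gene Csf2rb had 1569 and 1353 CPM, Cd53 had 476 and 376, and Ptprc, which encodes CD45, had 387 and 299. The 9 models under the filter included the M-CSF receptor gene Csf1r with 10 and 12 counts. Over the list of 10 monocyte and macrophage markers the summed level was 322 CPM in WT and 127 in 2KR. Of 8 tested markers 4 were called lower (Gpnmb, Klf4, Cx3cr1 and Ccr2) and 1 higher (Ly6c2), against the same 4.56% and 2.66%. Ly6c2, at 0.858 and 6.31 CPM, passed the filter only through 2KR. The part of monocyte-type cells in the values of PU.1 target genes was not tested.

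The 3 RUNX genes were all expressed in both libraries, and their ratios lay on both sides of 1. Runx1 (ENSMUSG00000022952, chromosome 16, 92601466 to 92826149) was at 335 CPM for WT against 379 for 2KR, with a ratio of 1.13 (1.09 to 1.17). Runx2 (ENSMUSG00000039153, chromosome 17, 44495987 to 44814797), best known as the bone regulator, had 161 and 158 CPM, a ratio of 0.986 (0.937 to 1.04). Runx3 (ENSMUSG00000070691, chromosome 4, 135120652 to 135177990), a factor of T cells and NK cells that is also read in progenitors, had 71.3 and 61.9 CPM, a ratio of 0.868 (0.802 to 0.939). So Runx1 was slightly higher and Runx3 slightly lower, and for Runx2 a difference was not detectable at this depth. Supt3 overlaps Runx2 on the other strand and had 216 and 301 counts, and Runx2os1 had 54 and 51. The counts are per gene, and transcripts from the separate promoters of a RUNX gene are not told apart.

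The 3 genes therefore made up slightly different shares of the RUNX total. Per length, Runx1 gave 47.8% of the summed RUNX FPKM in WT and 52.9% in 2KR. Runx3 gave 27.6% and 23.4%, and Runx2 24.6% and 23.7%. These shares depend on the gene length used. With the longest coding transcript of each gene Runx3 gave 18.3% and 15.2% and Runx2 24.7% and 23.3%, so that Runx3 came after Runx2 in WT too. In counts, Runx1 relative to Runx3 was 1.30-fold higher in 2KR (1.20 to 1.42), and Runx1 relative to Runx2 was 1.15-fold higher (1.08 to 1.22). Runx1 was the main RUNX transcript in both libraries.

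Cbfb (ENSMUSG00000031885, chromosome 8, 105170674 to 105217989), the shared partner, was at 170 CPM for WT against 188 for 2KR, with a ratio of 1.10 (1.05 to 1.15). Its level was 0.680 of the summed RUNX FPKM in WT and 0.732 in 2KR, or 0.587 and 0.617 with the longest coding transcripts. In counts the balance of Cbfb to the RUNX sum had a ratio of 1.04 (0.986 to 1.10). That interval holds 1, so a change of this balance was not detectable at this depth.

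Cofactors of RUNX proteins held the lowest log2 ratios of the lists beside cell type markers. Of 15 tested, 2 were at least 2-fold lower and 0 higher, against 4.56% and 2.66% of all tested models. The median log2 ratio of the 15 was -0.13. Tle4, a Groucho-type corepressor, was at 36.4 CPM for WT against 4.95 for 2KR, 7.35-fold lower (5.95 to 9.15). Runx1t1, the ETO corepressor gene known as the fusion partner of RUNX1 in leukaemia, had 40.8 and 6.21 CPM, 6.56-fold lower (5.43 to 7.99). The other 13 cofactors stayed under the rule, among them Ncor1 with 350 and 373 CPM, Kmt2a with 287 and 235, and Hipk1 with 236 and 215. Their paralogs were not called but did not all lie near 1. Tle1 had a ratio of 0.558 (0.492 to 0.632) and Tle2 of 0.605 (0.487 to 0.752), both lower in 2KR as Tle4 was, while Tle3 had a ratio of 1.17 (1.12 to 1.22). Cbfa2t2 and Cbfa2t3 had ratios of 0.995 (0.826 to 1.20) and 0.989 (0.928 to 1.05).

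Known RUNX1 target genes lay mostly above 1. Of 10 tested, 8 had a ratio above 1, against 52.3% of all tested models. The rule called 4 higher and 0 lower, against 2.66% and 4.56%. The median log2 ratio of the list was 0.53. With a pseudocount of 5 CPM 2 were called. The list was chosen with earlier results of these data known, and it includes Spi1, Gfi1 and Myb, which are among the 10 genes. Pf4, platelet factor 4, had 121 and 406 CPM, 3.35-fold higher (3.19 to 3.52). The neutrophil protease gene Ctsg was 2.29-fold higher (2.21 to 2.38), Mpo, myeloperoxidase, was 2.22-fold higher (1.93 to 2.56) and Gzmb, granzyme B, was 2.00-fold higher (1.97 to 2.04), at the edge of the rule. Itga2b, the CD41 gene, was at 867 CPM for WT against 858 for 2KR, with a ratio of 0.990 (0.969 to 1.01). Of 12 neutrophil markers 4 passed the filter, and the summed level of the 12 was 251 CPM in WT and 563 in 2KR. Ctsg alone gave 212 and 487 CPM of that sum. Elane, neutrophil elastase, had 5 and 10 counts and Camp 0. Ctsg and Gzmb lie near each other on chromosome 14, from positions 56099881 and 56258856. The mast cell and basophil marker Mcpt8, from 56082166 on the same chromosome, was 2.37-fold higher (2.27 to 2.46). The 2 markers called higher, Mpo and Ctsg, are themselves on the list of RUNX1 targets. The part of a change in neutrophil-type cells in these values was not tested.

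**Figure D2:**
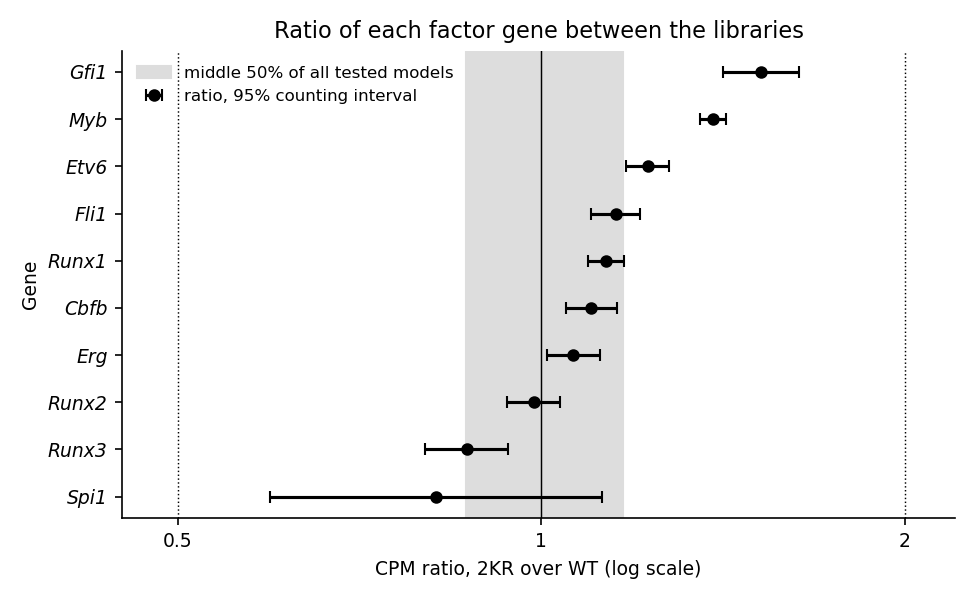
CPM ratio of each of the 10 genes, 2KR over WT (log axis), with its exact 95% counting interval. The grey band spans the middle 50% of all tested models and the dotted lines mark 2-fold, and Gfi1 at 1.52 and Myb at 1.39 lie furthest from 1.

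Myb (ENSMUSG00000019982, chromosome 10, 21124936 to 21160905) was the most abundant of the 10 genes. Counts were 10725 for WT and 17542 for 2KR, or 613 and 851 CPM, a ratio of 1.39 (1.35 to 1.42). Per length it had 113 and 160 FPKM, above 98.1% and 98.6% of tested models. Its ratio was above that of 90.1% of tested models. The flanking genes Ahi1 and Hbs1l had ratios of 1.22 (1.11 to 1.34) and 0.823 (0.758 to 0.894), so its neighbours lay on both sides of 1.

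The 2 paralogs of Myb were higher in 2KR to a similar extent. Mybl2, a cell cycle regulator, had 41.3 and 59.7 CPM, a ratio of 1.45 (1.32 to 1.59). Mybl1 had 14.9 and 20.2 CPM, a ratio of 1.36 (1.16 to 1.60). Myb made up 92.2% of the summed FPKM of the 3 genes in WT and 92.0% in 2KR. In counts, the balance of Myb to Mybl2 had a ratio of 0.959 (0.872 to 1.05) and that of Myb to Mybl1 a ratio of 1.02 (0.872 to 1.19). The coactivator genes lay below 1. Crebbp, the CBP gene, had 123 and 73.5 CPM, 1.68-fold lower (1.57 to 1.79), and Ep300, which encodes p300, had 221 and 190 CPM. Of the 8 genes of the MYB family and its partners, 0 were called, against 7.22% of all tested models. Their median log2 ratio was -0.19.

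Known MYB target genes had values on both sides. Of 11 tested, 8 had a ratio above 1, against 52.3% of all tested models. The rule called 2 higher and 0 lower, against 2.66% and 4.56%. The median log2 ratio of the list was 0.30. With a pseudocount of 5 CPM, or on FPKM, 1 was called. Lmo2, an adaptor of the stem cell factor complex, had 7.04 and 23.4 CPM, 3.33-fold higher (2.72 to 4.09), and the other gene was Mpo. The progenitor antigen gene Cd34 had 388 and 723 CPM and stayed under the rule at 1.86-fold (1.81 to 1.92). In the other direction, Kit, the SCF receptor, had 1359 and 1158 CPM, and the survival gene Bcl2 had 425 and 287, 1.48-fold lower (1.43 to 1.53).

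Gfi1 (ENSMUSG00000029275, chromosome 5, 107716657 to 107726036) had the largest ratio of the 10 genes. Counts were 1162 for WT and 2082 for 2KR, or 66.5 and 101 CPM, a ratio of 1.52 (1.41 to 1.63). Its log2 ratio of 0.60 was above that of 93.2% of tested models, and 234 other models lay within 0.05 of it. For comparison, 1591 models lay within 0.05 of Erg. With 2 libraries a pattern is a single ratio, and no gene is named for likeness. The model overlaps A430072P03Rik on the other strand, which had 32 and 31 counts. Of the flanking genes, Rpap2 had a ratio of 1.26 (1.13 to 1.41), in the direction of Gfi1, and Evi5 of 1.01 (0.938 to 1.08).

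The paralog Gfi1b, a factor of erythroid and megakaryocytic cells, was low. It had 197 and 309 counts, and per length Gfi1 was at 3.12 times its level in WT and 3.57 times in 2KR. With the longest coding transcripts these were 3.76 and 4.29 times. The balance of Gfi1 to Gfi1b in counts had a ratio of 1.14 (0.942 to 1.38). GFI1 and PU.1 are known to oppose each other, and relative to Spi1 the Gfi1 counts were 1.86-fold higher in 2KR (1.36 to 2.54). Corepressors of GFI1 showed 0 calls among 9 tested genes, against 7.22% of all tested models. Rcor1, a CoREST scaffold, had 213 and 214 CPM, and Ehmt2 had 312 and 263. The deacetylase gene Hdac2 had a ratio of 1.47 (1.38 to 1.56).

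Genes that GFI1 is known to repress had the lowest median of the lists beside cell type markers. Among 10 tested genes 7 lay below a ratio of 1, against 47.7% of all tested models. The rule called 4 genes of the list lower in 2KR and 0 higher, against 4.56% and 2.66%. The median log2 ratio was -0.69. With a pseudocount of 5 CPM 2 were called. The list includes Spi1 and shares Csf1r with the monocyte markers above. Egr1, an immediate early factor linked to the monocyte fate, had 2120 and 699 CPM, 3.03-fold lower (2.97 to 3.09). Meis1, which encodes a partner of HOX proteins, was 2.67-fold lower (2.45 to 2.92). Csf1, the macrophage growth factor, was 2.44-fold lower (1.95 to 3.05) and Id1, an inhibitor of basic helix-loop-helix factors, 2.36-fold lower (1.93 to 2.88). Id2 had 395 and 241 CPM, under the rule. On the other side Cdkn1a, a cell cycle inhibitor, was 1.56-fold higher (1.51 to 1.61). A link of these values to Gfi1 was not tested.

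The 3 ETS factors of stem and megakaryocytic cells were at moderate to high levels in both libraries. Fli1 (ENSMUSG00000016087, chromosome 9, 32422204 to 32542861) was at 173 CPM for WT against 199 for 2KR, with a ratio of 1.15 (1.10 to 1.21). Erg (ENSMUSG00000040732, chromosome 16, 95359169 to 95586593) came to 155 and 165 CPM, with a ratio of 1.06 (1.01 to 1.12). Etv6 (ENSMUSG00000030199, chromosome 6, 134035700 to 134270158), the TEL repressor, had 222 and 272 CPM, a ratio of 1.23 (1.18 to 1.28). All 3 ratios were thus above 1 and at most 1.23. Fli1 and Erg are close paralogs, and in counts their balance had a ratio of 1.08 (1.01 to 1.16).

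Fli1 and Erg each lie beside another ETS gene, and these neighbours went different ways. Ets1 lies 93.4 kb from Fli1 and had 166 and 245 counts, a ratio of 1.25 (1.02 to 1.53). Its balance to Fli1 was 1.09 (0.887 to 1.33). Ets2 lies 115 kb from Erg and had 73.4 and 45.9 CPM, a ratio of 0.626 (0.575 to 0.681). In counts the balance of Ets2 to Erg had a ratio of 0.588 (0.533 to 0.649). On its other side, Fli1 is flanked by the GTPase-activating gene Arhgap32, which had 1938 and 658 counts and was 3.47-fold lower. Arhgap32 alone was called among the 20 nearest expressed protein-coding neighbours of the 10 genes, against 7.22% of all tested models. The ratio was below 1 beside Runx1 for Rcan1 (0.493) and Setd4 (0.644), beside Runx2 for Clic5 (0.782) and Cdc5l (0.997), and for Syf2 (0.958) beside Runx3, Fam96b (0.908) beside Cbfb and Smim10l1 (0.923) beside Etv6. It was above 1 for Clic4 (1.101) beside Runx3, D230025D16Rik (1.103) beside Cbfb, Dyrk1a (1.19) beside Erg and Bcl2l14 (2.51, from 25 and 74 counts) beside Etv6.

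**Figure D3:**
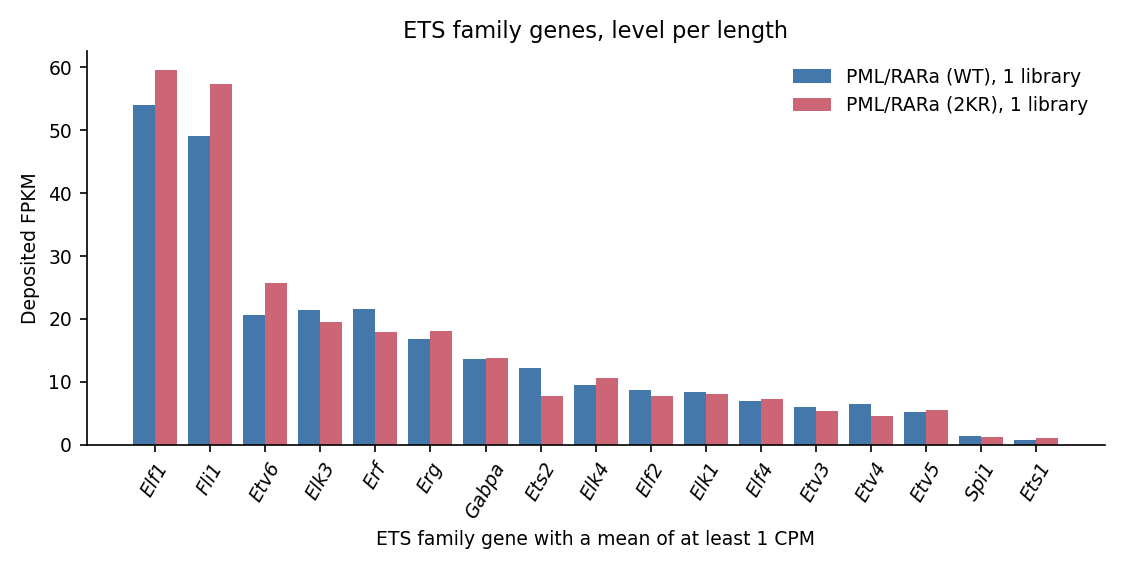
Deposited FPKM (linear axis from 0) of the 17 ETS family genes with a mean of at least 1 CPM, in the WT library (blue bars) and the 2KR library (red bars), 1 library each and so without error bars. Elf1, at 53.9 and 59.6 FPKM, and Fli1, at 49.0 and 57.3, lead in both libraries, and Spi1 and Ets1 are the lowest.

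Within the whole ETS family of 26 gene models, 17 passed the filter and 0 were called, against 7.22% of all tested models. Elf1, an ETS factor of blood cells, gave 20.5% of the family's summed FPKM in WT, and Fli1 gave 18.6% in WT and 21.1% in 2KR. With the longest coding transcript as length Fli1 gave 11.7% and 13.4%, and Erg 10.7% and 11.3% in place of 6.38% and 6.67%. Spi1 gave 0.555% and 0.447%. The 13 tested ETS genes outside the 10 had a median log2 ratio of -0.08, with 6 ratios above 1 and 7 below. Over all tested models 52.3% were above 1. The log2 ratios of the 13 genes ran from -0.67 for Ets2 to 0.30 for Ets1. Of the others, Elf1 had 359 and 391 CPM, Elf2 176 and 153 and Elk3 136 and 122. Spib, the closest relative of Spi1, had 4 and 5 counts, and Spic had 0 in both libraries.

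Target genes of FLI1 and ERG differed widely in level. Of 18, 14 were tested, and 10 of these had a ratio above 1, against 52.3% of all tested models. The rule called 3 higher and 0 lower, against 2.66% and 4.56%. The median log2 ratio of the list was 0.44. Besides Pf4, the higher genes were Ppbp, a platelet chemokine, at 9.55 and 25.2 CPM, 2.64-fold (2.21 to 3.16), and Eng, endoglin, with 32 and 129 counts, 3.42-fold (2.31 to 5.21). Tal1 had 465 and 414 CPM and Gata2 683 and 447. Over 8 megakaryocyte and platelet markers, all 8 of which are also on this list, the summed level was 1004 CPM in WT and 1296 in 2KR. Most of that difference was Pf4, at 121 and 406 CPM, while Itga2b was at 867 and 858 and Vwf had a ratio of 0.545 (0.323 to 0.906). Of these markers, Gp6 had 0 counts in both libraries. The part of megakaryocyte-type cells in the higher values was not tested.

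**Figure D4:**
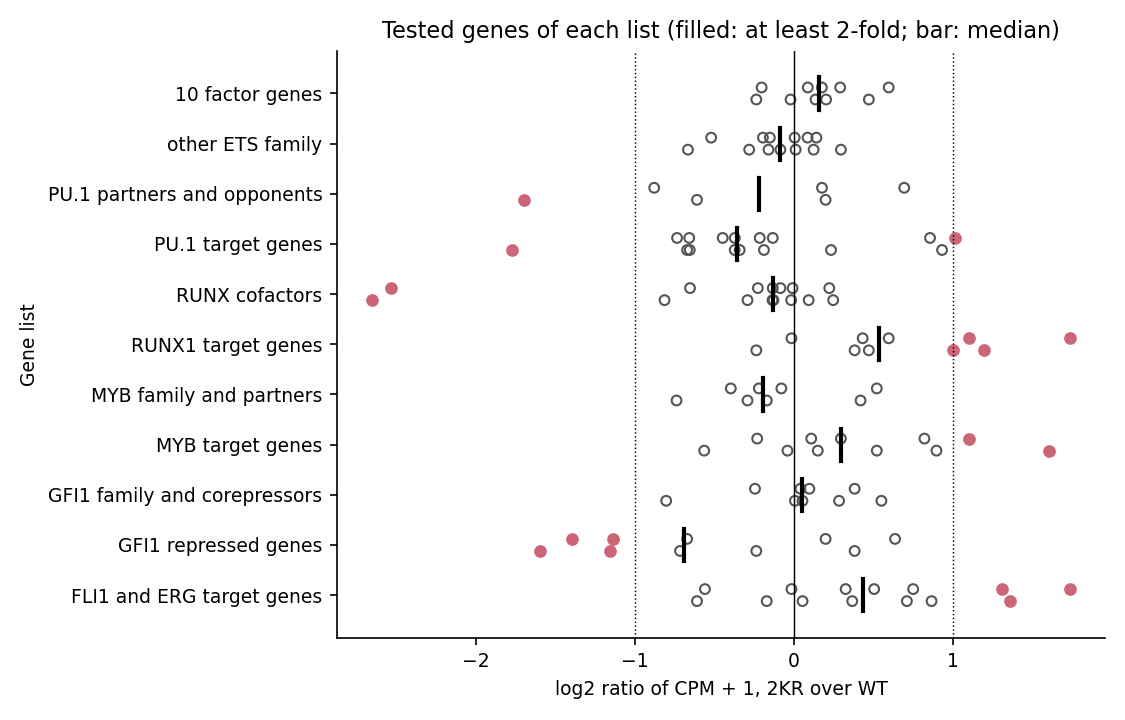
log2 ratio of CPM + 1, 2KR over WT, for the tested genes of each list (1 point per gene, filled where the difference was at least 2-fold, vertical bar at the list's median, dotted lines at 2-fold). The 10 factor genes lie between -0.24 and 0.60. The target and cofactor lists together reach from -2.65 to 1.74, and all tested models from -5.22 to 5.63. A range widens with the number of genes, so these ranges do not compare stability.

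Per length, the order of the 10 genes in WT was Myb, Fli1, Cbfb, Etv6, Runx1, Erg, Gfi1, Runx3, Runx2 and Spi1. In 2KR it was the same except that Runx2 came before Runx3. Counting intervals of neighbours overlapped for Gfi1 and Runx3 in WT, and for Erg and Gfi1 and for Runx2 and Runx3 in 2KR. The order rests on the gene lengths behind the deposited FPKM, which were 18224 nt for Runx1 and 3493 nt for Fli1. The longest coding transcripts of these genes in GENCODE M21 have 5861 and 3318 nt. With such lengths, an alternative chosen after the data were seen, 2 of the 10 genes kept their place in WT and 5 in 2KR. Runx1 then took the third place and Fli1 the fourth in both libraries, with Fli1 at 1.18 times Erg in 2KR in place of 3.16 times. Myb stayed first and Spi1 last. Ratios between the libraries do not depend on length.

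The cells were checked against marker lists. All 11 stem and progenitor markers passed the filter, with a summed level of 3336 CPM in WT and 3206 in 2KR, and Kit was the highest. The 1 called marker was Mecom, the EVI1 gene of stem cells and leukaemia, with 0 counts in WT and 997 in 2KR. Mecom passed the filter only through 2KR. Mast cell and basophil markers were also abundant, led by Cpa3, a mast cell carboxypeptidase, at 5468 and 2525 CPM. Their sum was 8688 CPM in WT and 5052 in 2KR. The rule called 7 of 10 tested lower (Cpa3, Hdc, Il1rl1, Mitf, Ms4a2, Cma1 and Prss34) and 1 higher (Mcpt8). Prss34 (82 and 0 counts), Cma1 (62 and 2) and Ms4a2 (66 and 18) passed the filter only through WT, where they were high. A call as lower was thus nearly fixed for such genes. Hdc, with a log2 ratio of -1.01, was at the edge of the rule. Over all tested models the shares were 4.56% lower and 2.66% higher. Fcer1a and Tpsab1 had 0 counts in both libraries. Kit and Gata2 are on this list too, and the part of mast cells in the Gata2, Kit and Btk values was not tested. No B cell marker of 8 passed the filter, and their sum was 0.801 and 1.46 CPM. Sums were 13.6 and 22.2 CPM for T and NK cell markers, of which Lck was called higher, 19.0 and 27.2 for erythroid markers, and 566 and 694 for stromal and endothelial markers, of which Pecam1 alone gave 550 and 669.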

How the data were processed

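RNA-seq libraries of the 2 forms, 1 each, were grouped by the infection given in the labels. The submitters' processing notes name HISAT2 2.0.4 and the build GRCm38. The counting program, the annotation release and the use of strand are not stated in the sources used here. Reads where models overlap, or lie antisense, may thus have been counted for either. Per the file headers, the authors deposited read counts, not normalized, and FPKM for each gene model. The deposited FPKM equalled count over a fixed length and the library total, within 0.1%, in 15403 of the 15403 models that had counts in WT and 2KR alike.

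Counts were scaled by TMM in edgeR 4.0.16 (R 4.3.3), whose factors were 0.993 (WT) and 1.01 (2KR). Ratios, their Clopper-Pearson intervals (95%) and Poisson intervals were computed in Python 3.11.15 with scipy 1.17.1. Balances of a pair of genes are ratios of count ratios with log-scale normal 95% intervals, for 12 pairs. All intervals cover counting error only, and reads may include duplicates. The log2 ratio used a pseudocount of 1 CPM, which understates differences of low genes. Steps were tested on simulated data. Identifiers were matched to GENCODE M21 for strand and gene type, and 34267 of 34745 matched.

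The 10 genes, the 10 lists around them and the 9 marker lists were chosen with earlier results of these data known. By rule the text names all 10 genes, overlapping models, the nearest expressed neighbours, and from each list around the 10 the called genes and the 3 most abundant. Overlapping models with at most 10 counts in either library were left unnamed. Of lists with 8 genes or fewer all may be named. Csf1r, Elane, Tle1, Tle2, Tle3, Cbfa2t2, Cbfa2t3, Gfi1b, Spib, Spic, Hdc and markers at 0 fall outside this rule and were chosen after their values were seen. Alternatives were other pseudocounts, filters, scalings and FPKM.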

Additional observations from a re-analysis of the deposited data

How the results depend on the processing

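The count of called genes among the 10 was 0 in all 9 alternatives (pseudocounts, filters, scalings, FPKM). The sign of each of their log2 ratios was also the same in all 9. A pseudocount cannot change a sign, and a filter leaves these ratios as they are, so only the scalings and FPKM could have changed it. The log2 ratio ran from 0.57 to 0.62 for Gfi1, from 0.45 to 0.49 for Myb, from -0.28 to -0.14 for Spi1 and from -0.04 to -0.0002 for Runx2. Of all models 900 were called, against 444 with a pseudocount of 5 CPM (147 higher, 297 lower), 584 with a mean of at least 5 CPM (207 higher, 377 lower) and 416 on FPKM (153 higher, 263 lower). Fewer models are tested under the last 2, and the larger pseudocount shrinks low genes by construction. Of the genes on the 10 lists around the 10 genes, 16 were called, and 10 with a pseudocount of 5 CPM. Genes on more than 1 list were counted once, and the numbers tested are given list by list above. Over all tested models the share called was 7.22%. The number of the 10 genes in their place of the order per length was 2 in WT and 5 in 2KR with the longest coding transcript. Spi1, with 85 and 82 counts, is limited by depth and falls under the filter of 5 CPM. No paired analysis was possible because each form has 1 library, and no library could be left out. A DESeq2 test was not run for the same reason.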
